A study of Homo sapiens with 6 samples.

Results

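The endoplasmic reticulum (ER) chaperones and disulfide isomerases examined here are 42 genes chosen by the known function of their products, out of 34500 genes with a matched transcript in the libraries. All 42 were among the 11857 genes that passed the filter on low values (1 TPM or more in at least 3 libraries) and were tested. They fall into 5 classes: 14 genes for the HSP70 and HSP90 chaperones of the ER and their partners, 3 for the lectin cycle, 17 for the protein disulfide isomerase (PDI) family and its oxidases, 4 for prolyl isomerases and 4 for calcium-binding proteins of the CREC family. The RNA came from RPMI 8226 cells, a long-established line from a human multiple myeloma. The cells had received a lentiviral hairpin against luciferase (shLuc, the control) or against HDAC1 (shHDAC1), a class I histone deacetylase, and each group had 3 libraries. Both groups shared the vector system, a puromycin selection of 48 h and RPMI-1640 medium with 10% fetal bovine serum. The labels name 1 hairpin for HDAC1 and 1 line, so effects of the loss of HDAC1 and of that hairpin's other targets cannot be told apart. The question was which of these genes differed with shHDAC1, and by how much in each class.

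The ER of a plasma cell folds large amounts of immunoglobulin before it is secreted. Chaperones of the HSP70 and HSP90 type hold unfolded chains, calnexin and calreticulin bind chains that carry a trimmed glycan, disulfide isomerases form and rearrange disulfide bonds, and prolyl isomerases turn proline bonds that slow folding. When unfolded protein builds up, the sensors IRE1, PERK and ATF6 start the unfolded protein response, in which XBP1 and ATF6 act on promoter motifs called ER stress elements.

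The promoters of several of these genes are the classical places where such elements were described, so their letters are shown before the values. RefSeq windows of 300 bases, from 250 bases before to 50 bases after a gene's start (GRCh38.p14), were matched for 40 of the 42 genes. The ER stress element (ERSE) was searched as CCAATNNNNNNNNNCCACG, ERSE-II as ATTGGNCCACG and the unfolded protein response element (UPRE) as TGACGTGG, each on both strands. ERSE was found in 27 of 35116 windows of all genes (0.0769%). Counted by gene symbol, it was in 25 of 27305 symbols (0.0916%) and in 7 of the 40 matched members (17.5%). ERSE-II was found in 19 windows (0.0541%), in 19 symbols (0.0696%) and in 2 members (5%). UPRE was found in 256 windows (0.729%), in 253 symbols (0.927%) and in 4 members (10%). The sites of HSPA5, HSP90B1, CALR, CANX, PDIA6 and CRELD2 follow, because these 6 genes hold ERSE and are also members whose RNA fell. The ERSE-II sites of HYOU1 and SDF2L1 are shown for contrast. The letters that match the motif or its reverse complement are in capitals, with 10 flanking bases or as many as the overlap with another match allows, read 5′ to 3′ on the strand of the gene.
HSPA5: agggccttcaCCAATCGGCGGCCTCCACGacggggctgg
HSP90B1, upstream site: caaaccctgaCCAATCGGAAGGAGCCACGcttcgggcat
HSP90B1, downstream site: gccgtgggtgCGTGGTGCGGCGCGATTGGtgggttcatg
CALR: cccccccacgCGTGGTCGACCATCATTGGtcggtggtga
CANX: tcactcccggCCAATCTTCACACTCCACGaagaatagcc
PDIA6: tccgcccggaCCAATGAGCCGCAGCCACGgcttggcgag
CRELD2: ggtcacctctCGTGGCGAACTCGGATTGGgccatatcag
HYOU1, ERSE-II overlapping UPRE: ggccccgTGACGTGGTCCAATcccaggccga
HYOU1, second ERSE-II: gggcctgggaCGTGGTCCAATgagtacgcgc
SDF2L1: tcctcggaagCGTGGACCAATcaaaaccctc

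The capitals lie at chr9:125241391-125241409 for HSPA5, at chr12:103930216-103930234 and chr12:103930321-103930339 for HSP90B1, at chr19:12938384-12938402 for CALR and at chr2:10812853-10812871 for PDIA6. For CANX they lie at chr5:179698778-179698796 and for CRELD2 at chr22:49918554-49918572. ERO1B, whose RNA is scarce in these cells, holds an ERSE as well, at chr1:236282183-236282201. Single UPRE matches were present in the windows of DNAJC10, TXNDC11 and TXNDC5. A match is a run of letters and no measured binding, and the absence of a match concerns this window alone. HSP90B1 was the member with a pair of ERSE matches, on opposite strands, and its whole window (chr12:103930160-103930459, strand +) shows how they lie.
HSP90B1, promoter window: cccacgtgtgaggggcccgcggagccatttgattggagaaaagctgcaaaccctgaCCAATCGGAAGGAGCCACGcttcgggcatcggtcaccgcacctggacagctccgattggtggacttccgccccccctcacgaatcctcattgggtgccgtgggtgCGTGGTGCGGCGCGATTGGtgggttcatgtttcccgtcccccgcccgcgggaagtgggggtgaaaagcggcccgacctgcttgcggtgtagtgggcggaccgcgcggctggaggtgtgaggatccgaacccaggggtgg

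**Figure D1:**
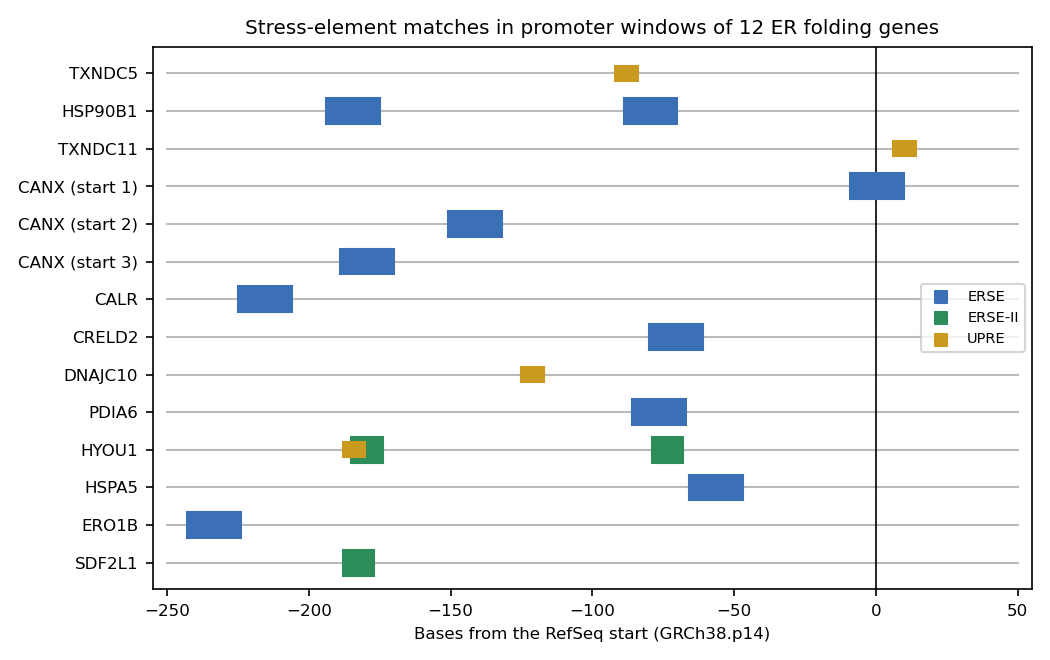
Positions of motif matches (bases from the RefSeq start, GRCh38.p14) in the promoter windows of the 12 members with a match, with 1 line per annotated start. Blue bars are ERSE, green bars ERSE-II and narrow ochre bars UPRE, and CANX has 3 lines because the same match falls in the windows of 3 annotated starts.

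HDAC1 itself, read first as a check of the labels, had 89.98, 85.0 and 88.9 TPM with shLuc but 31.8, 27.0 and 29.2 TPM with shHDAC1, 33.3% of the control level (limma adjusted p = 2.17e-06). The libraries looked like plasma cells: 9 of 10 plasma cell markers were at 1 TPM or more in all 6 libraries, and SLAMF7 was below 1 TPM. The summed TPM of these markers was 20422 to 21352 with shLuc and 15043 to 16283 with shHDAC1, and 2 genes, IGLC2 and JCHAIN, made up nearly all of it. Among the less abundant markers, TNFRSF17, the receptor BCMA, fell to 19.7% of the control (limma adjusted p = 3.64e-08), IRF4, a transcription factor of plasma cells, to 45.6% (limma adjusted p = 6.12e-05) and CD38 to 62.4% (limma adjusted p = 5.30e-04). The part of these markers in the results was not tested. Of 6 T and NK cell markers, 0 reached 1 TPM in every library, with CD3D, CD2 and NKG7 listed at 0 throughout. Myeloid markers summed to 10.3 to 12.9 TPM with shLuc and to 22.3 to 28.0 TPM with shHDAC1, nearly all of it from CD68 and ITGAM, with CD14, LYZ and CSF1R below 1 TPM. EPCAM and KRT18 made up nearly all of the fibroblast and epithelial sum, which was 213 to 226 TPM with shLuc and 214 to 224 TPM with shHDAC1. In bulk RNA, fewer cells of a type and less RNA per cell cannot be told apart.

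Most of the abundant ER folding genes had less RNA with shHDAC1, and their sum was lower in every library. The shLuc libraries summed to 14458, 14257 and 14376 TPM over the 42 genes, and the shHDAC1 libraries to 10188, 10102 and 10307 TPM. The 2 groups lay far apart compared with their spread, at 14364 ± 100.8 and 10199 ± 103 TPM (SD, n = 3 each), a difference of -28.99%. An exact two-sided permutation test over the 6 libraries gave p = 0.1, the smallest value that 3 against 3 libraries allow. In the fit of all genes 25 members fell, 1 rose (QSOX1) and 16 were not called (limma, adjusted p below 0.05). Over all genes tested, 10.3% were called lower and 16.9% were called higher, and that split depends on scaling: with each library centred on its median, 1828 genes were called lower and 1336 higher, against 1219 and 2007 without centring. The shLuc and shHDAC1 values did not overlap in 27 members that were lower and in 2 that were higher, where 16.0% of all genes tested did not overlap and were lower and 27.4% did not overlap and were higher. Taking the middle value, the members stood at a log2 fold change of -0.36 and all genes tested at 0.07, and 36 members lay below 0.

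The members that fell were mostly the abundant ones. The 21 members with a mean of at least 100 TPM over the 6 libraries included 19 that fell, and their median log2 fold change was -0.40. The 2 not called were P4HB and FKBP11. Among all genes of that level 23.0% were called lower and 12.8% higher, with a median of -0.04. The 21 members below 100 TPM included 6 that fell and 1 that rose, with a median of -0.15. The share called among all genes below 100 TPM was not counted, and over all genes tested 10.3% were called lower and 16.9% higher. CALU is among these 21 because its shHDAC1 values enter the mean, and its shLuc mean was 144 TPM. The split by level is therefore not independent of the change. TPM keep no read numbers, so the counting error of the low members is unknown. Their SE between libraries varied, for example 0.07 for TXNDC12 and 0.24 for MANF, both not called. Whether the low members differ less or were measured less well was not tested.

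**Figure D2:**
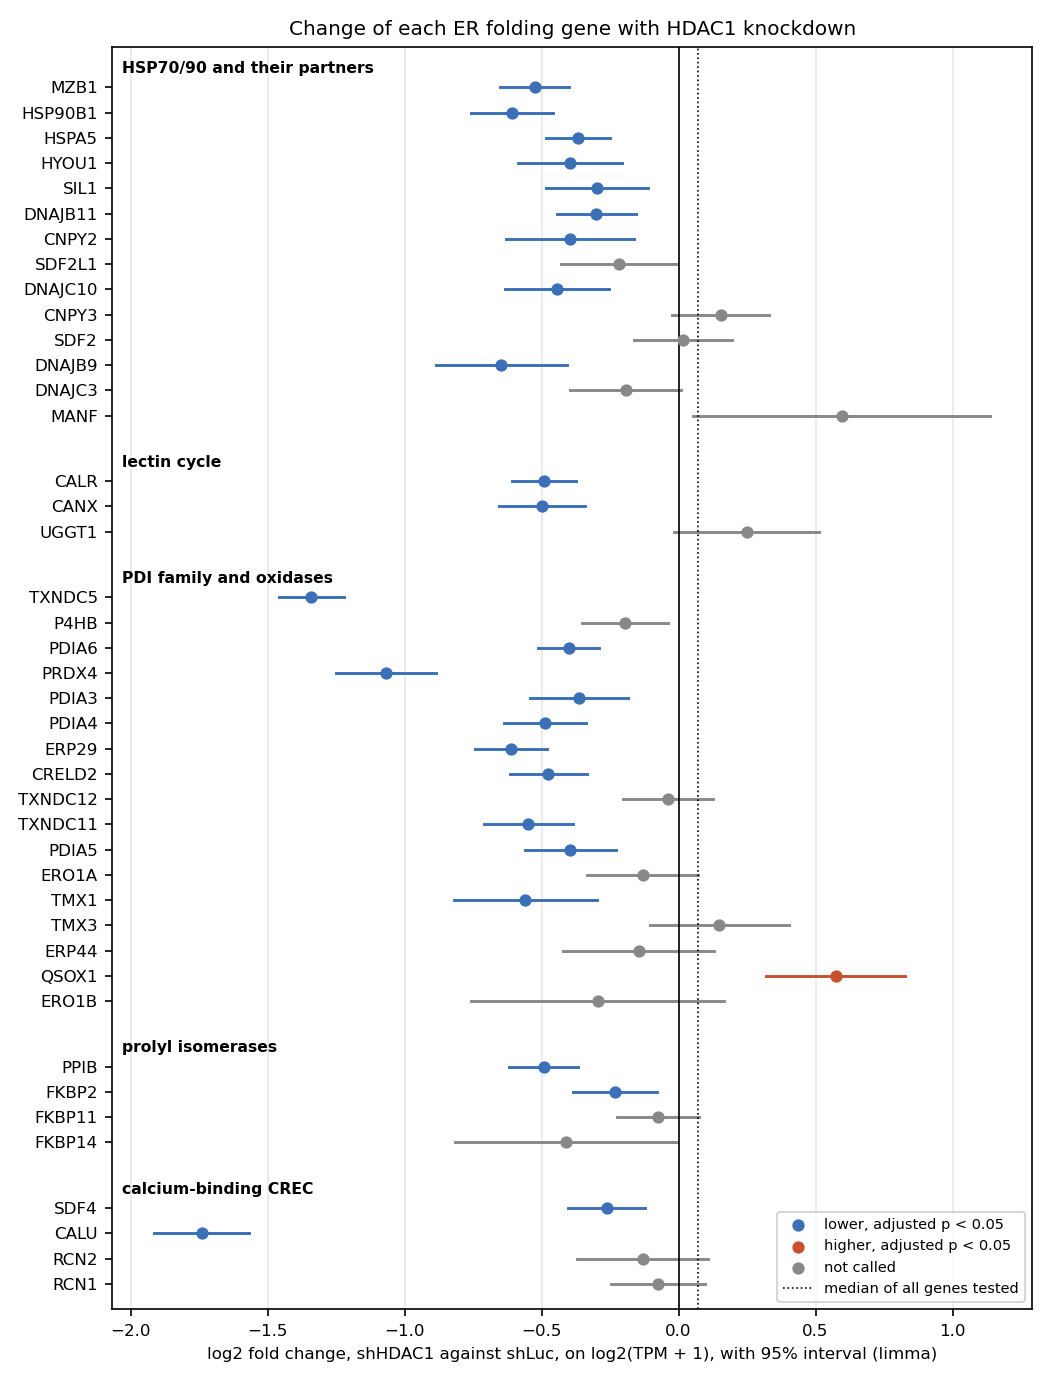
Log2 fold change (shHDAC1 minus shLuc, on log2(TPM + 1)) of each of the 42 members with its 95% confidence interval, grouped by class. Blue points are members called lower, red points members called higher and grey points members not called. The dotted line is the median of all genes tested (0.07), with 25 blue points left of 0 and QSOX1 as the red point on the right.

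CALU, TXNDC5 and PRDX4 stood apart from the rest of the group in the size of their change. CALU codes for calumenin, a calcium-binding CREC protein of the secretory pathway, and lies at chr7:128739292-128771807 (GRCh38, ENSG00000128595.16). It was at 138, 151 and 142 TPM with shLuc and at 46.0, 40.0 and 41.1 TPM with shHDAC1. TXNDC5, at chr6:7881517-7910814, codes for a disulfide isomerase with several thioredoxin domains that is abundant in plasma cells. It was at 984, 1019 and 1009 TPM with shLuc and at 413, 396 and 379 TPM with shHDAC1. PRDX4, on chromosome X at 23664262 to 23686399, codes for the peroxiredoxin of the ER, which uses hydrogen peroxide to oxidise PDI. It was at 467, 498 and 457 TPM with shLuc and at 217, 254 and 207 TPM with shHDAC1. In each of these genes every shHDAC1 library was far below every shLuc library. CALU fell to 29.5% of the control level (log2 fold change -1.74 ± 0.08 SE, limma adjusted p = 7.74e-07), which is rank 10 from the lowest fold change among the 11857 genes. TXNDC5 fell to 39.5% (-1.34 ± 0.05, limma adjusted p = 4.23e-07, rank 42) and PRDX4 to 47.7% (-1.07 ± 0.08, limma adjusted p = 2.60e-05, rank 72). ERSE and ERSE-II were in none of the promoter windows matched for CALU, TXNDC5 and PRDX4.

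The other 22 members called lower had log2 fold changes from -0.65 for DNAJB9 to -0.23 for FKBP2. Selection sets both ends of this range in part, since the largest falls were left out and small falls were not called. All 39 members other than CALU, TXNDC5 and PRDX4 ran from -0.65 to 0.59. Without CALU, TXNDC5 and PRDX4 the other 39 members summed to 12742 ± 142 TPM (shLuc) and 9534 ± 135 TPM (shHDAC1), a difference of -25.2% in place of -28.99%, and their median log2 fold change was -0.30.

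**Figure D3:**
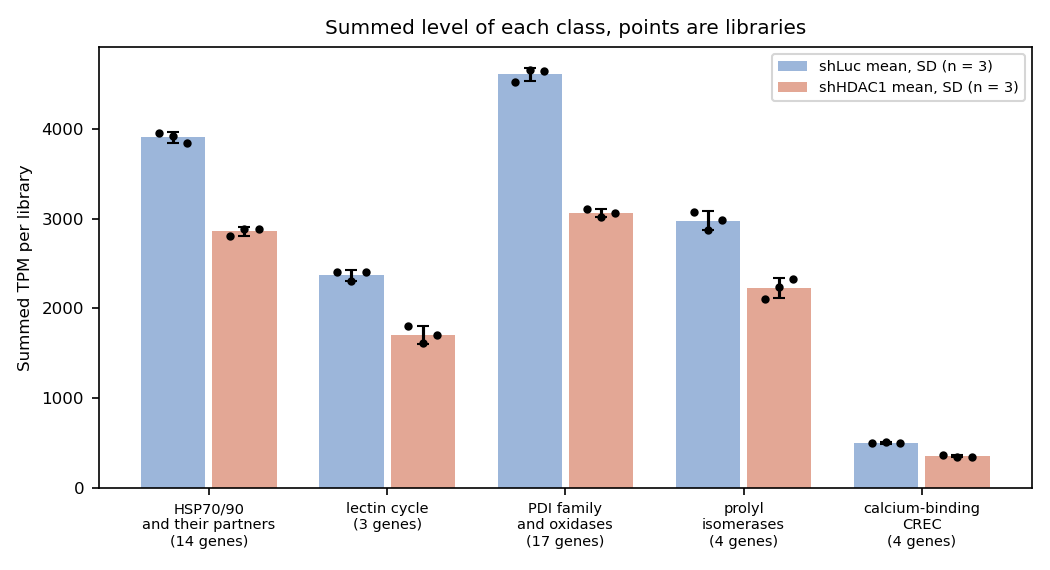
Summed TPM of each of the 5 classes in every library, as points, over bars that show the mean of each group of 3 libraries with its SD. The shHDAC1 libraries lie below all shLuc libraries in each class.

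Among the HSP70 and HSP90 chaperones, 9 of 14 members fell and 0 rose, and their median log2 fold change was -0.33. They summed to 3906 ± 56.4 TPM (shLuc) and 2858 ± 47.4 TPM (shHDAC1), SD over 3 libraries, a difference of -26.8%. HSPA5 codes for BiP, the main HSP70 of the ER. It was at 525, 552 and 518 TPM with shLuc and at 419.9, 409.6 and 406 TPM with shHDAC1. The groups were separate, and the level with shHDAC1 was 77.5% of the control (-0.37 ± 0.05, limma adjusted p = 0.001). HSP90B1 codes for GRP94, the HSP90 of the ER. It was at 767, 874 and 748 TPM with shLuc and at 509, 530.3 and 524 TPM with shHDAC1. The second shLuc library was the highest, the shHDAC1 libraries lay close together far below, and the level fell to 65.5% (-0.61 ± 0.07, limma adjusted p = 2.51e-04). The ratio of HSP90B1 to HSPA5 was 1.46, 1.58 and 1.44 with shLuc and 1.21, 1.29 and 1.29 with shHDAC1, separate in all libraries, with an exact permutation p of 0.1, again the smallest possible.

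MZB1 codes for a plasma cell protein that helps HSP90B1 in the assembly of immunoglobulin. Its level was 1541, 1436 and 1485 TPM with shLuc and 976, 1067 and 1057 TPM with shHDAC1. The shHDAC1 libraries were all far below the shLuc libraries, and MZB1 fell to 69.5% of the control (-0.53 ± 0.06, limma adjusted p = 2.11e-04). CNPY3, the other HSP90B1 partner in the list and one known for the folding of Toll-like receptors, went the opposite way in value without passing the test, at 67.5, 60.5 and 69.5 TPM with shLuc and 72.0, 70.7 and 77.1 TPM with shHDAC1. Its groups did not overlap, but the fold change was 0.15 with a 95% interval from -0.02 to 0.33 (limma adjusted p = 0.18).

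The partners that drive the HSP70 cycle of HSPA5 differed among themselves. DNAJB9, an ER J-domain protein that acts on the sensor IRE1 and on misfolded chains, was at 30.8, 35.4 and 34.1 TPM with shLuc and at 20.004, 23.99 and 19.2 TPM with shHDAC1. Its groups were separate, and it fell to 63.0% of the control (-0.65 ± 0.11, limma adjusted p = 0.0022). DNAJC10, a J-domain protein that also reduces disulfides, fell to 73.4% (-0.44 ± 0.08, limma adjusted p = 0.005), but on coding transcripts alone it was at -0.12 and not called (limma adjusted p = 0.42). DNAJB11, a cochaperone for nascent chains, fell to 81.0% (-0.30 ± 0.06, limma adjusted p = 0.0083). HYOU1 and SIL1, the nucleotide exchange factors of HSPA5, fell to 76.0% and 81.1%. HYOU1 was at 245, 237 and 271 TPM with shLuc and at 209, 172 and 191 TPM with shHDAC1, with no overlap (limma adjusted p = 0.0083). The call of SIL1 (limma adjusted p = 0.028) was lost without shLuc replicate 1 (0.11), shLuc replicate 3 (0.068), shHDAC1 replicate 1 (0.072) or shHDAC1 replicate 2 (0.067).

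DNAJC3, the J-domain protein known as an inhibitor of the kinase PERK, was at 22.9, 25.7 and 23.6 TPM against 21.8, 21.1 and 19.8 TPM, just apart and not called (limma adjusted p = 0.14). SDF2 and SDF2L1 form complexes with DNAJB11. SDF2L1 was at 83.2, 74.4 and 89.8 TPM with shLuc and at 64.7, 70.2 and 77.2 TPM with shHDAC1, so 1 shHDAC1 library was above the lowest shLuc library (limma adjusted p = 0.11). SDF2 stood at 45.6 ± 2.19 and 46.1 ± 2.73 TPM, a log2 fold change of 0.01 with an interval from -0.16 to 0.19, and the sign of that value changed with scaling. MANF, a secreted stress protein that binds HSPA5, was at 14.02, 5.97 and 8.33 TPM with shLuc and at 13.0, 16.0 and 13.2 TPM with shHDAC1. The first shLuc library was as high as the shHDAC1 libraries, and without it MANF was called higher (0.89, limma adjusted p = 0.0076), against 0.59 ± 0.24 and an adjusted p of 0.098 with all libraries. CNPY2, a saposin-like ER protein, fell to 75.6% (limma adjusted p = 0.021), from 187, 158 and 143 TPM to 121, 134 and 113 TPM. Its call was lost without shLuc replicate 1 or 2, without shHDAC1 replicate 1 or 3, and without the filter on low values (limma adjusted p of 0.051 to 0.091). On coding transcripts alone CNPY2 was at -0.93 in place of -0.40. CNPY2 also overlaps PAN2 and AC073896.1 on the same strand, so its reads may have been split differently.

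**Figure D4:**
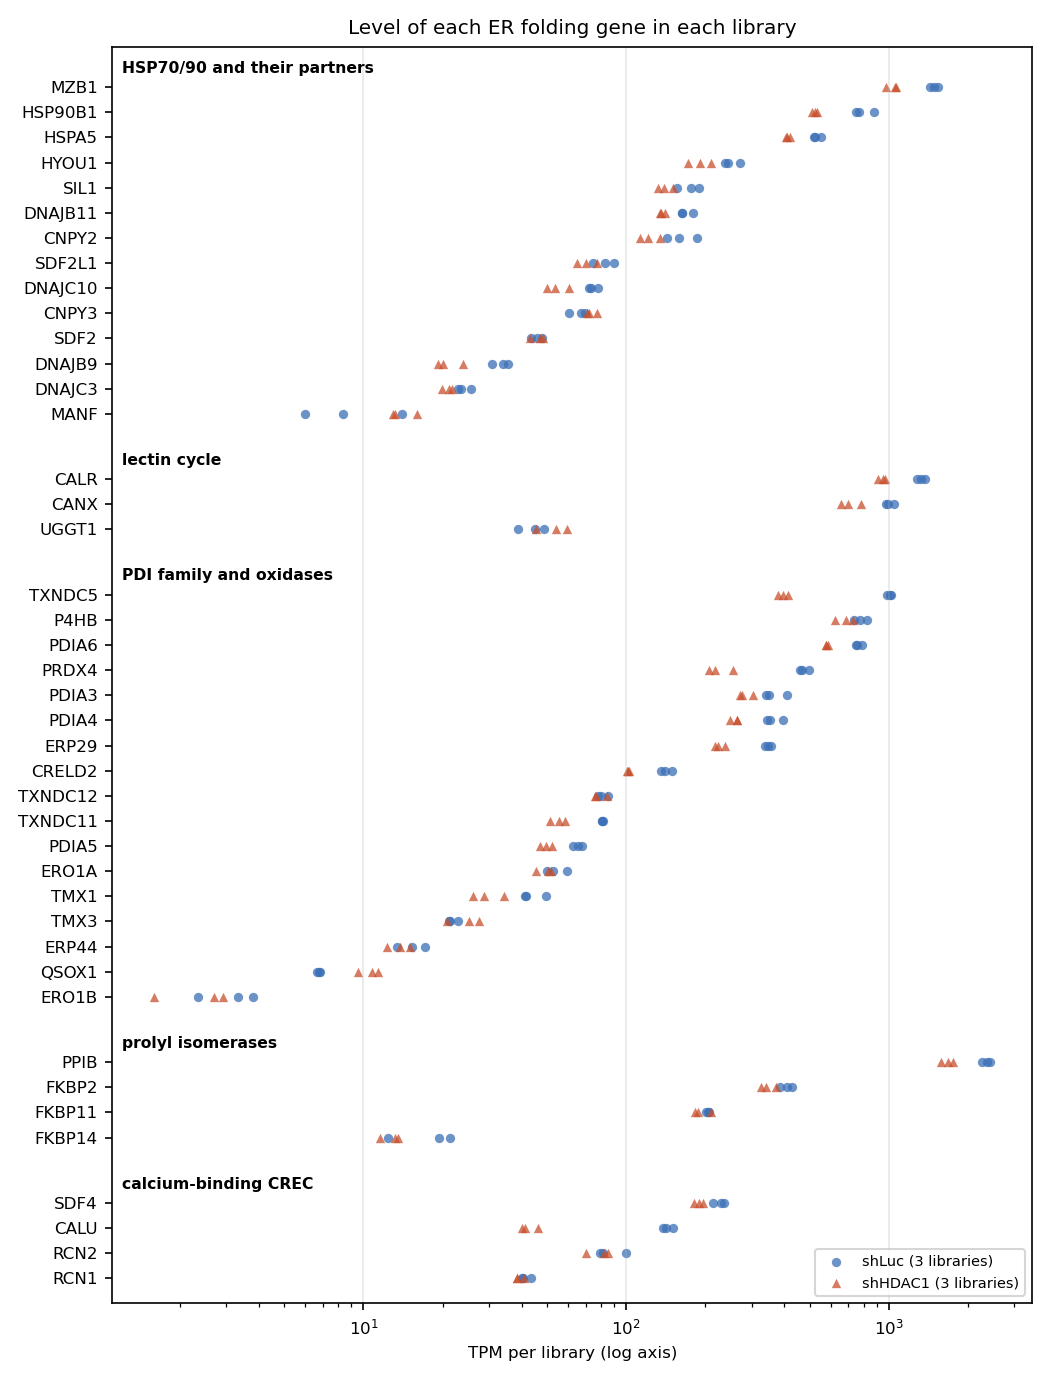
Level of each member in every library (TPM, log axis), grouped by class, with shLuc and shHDAC1 libraries in separate colours. Levels span from 3.16 TPM for ERO1B to 2349 TPM for PPIB with shLuc, and the gaps between the groups are widest for CALU, TXNDC5 and PRDX4.

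In the lectin cycle 2 of 3 members fell and 0 rose. CALR and CANX code for calreticulin and calnexin, the lectins that hold glycoproteins with a single glucose left on the glycan. CALR was at 1373, 1279 and 1319 TPM with shLuc and at 966, 907 and 948 TPM with shHDAC1. CANX was at 994, 972 and 1044 TPM with shLuc and at 781, 655 and 697 TPM with shHDAC1. The groups were well apart in both genes. Over all transcripts the falls were nearly equal in size, to 71.0% for CALR (-0.49 ± 0.05, limma adjusted p = 2.10e-04) and to 70.9% for CANX (-0.50 ± 0.07, limma adjusted p = 9.56e-04). The main coding forms were less alike, with CALR-201 at 804 and 545 TPM and CANX-201 at 502 and 399 TPM (shLuc and shHDAC1). UGGT1, the sensor that puts the glucose back on misfolded chains, was at 38.8, 48.8 and 45.1 TPM with shLuc and at 59.3, 45.2 and 54.0 TPM with shHDAC1. The second shHDAC1 library lay inside the shLuc range. UGGT1 was not called with all libraries (0.25 ± 0.12, limma adjusted p = 0.15) and was called higher without shHDAC1 replicate 2 (0.35, limma adjusted p = 0.044). The summed TPM of the class was 2371 ± 61.5 with shLuc and 1704 ± 99.6 with shHDAC1, a difference of -28.1%.

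The PDI family and its oxidases had the lowest sum relative to the control of the 5 classes, at 4610 ± 70.4 TPM with shLuc and 3065 ± 44.0 TPM with shHDAC1 (SD, n = 3), a difference of -33.5%. TXNDC5 and PRDX4 weigh heavily in that sum, at 1004 and 474 TPM with shLuc and at 396 and 226 TPM with shHDAC1. By median log2 fold change of the members the class was not the lowest, at -0.39 against -0.49 for the lectin cycle. Of the 17 members of the class 10 fell and 1 rose, and of the 13 without the oxidases 9 fell and 0 rose. Whether the classes differ in size of change was not tested. P4HB, the archetypal PDI, was the exception among the abundant isomerases, at 777, 735 and 822 TPM with shLuc and 687, 624 and 727 TPM with shHDAC1. The groups did not overlap, but P4HB did not pass the test (-0.20 ± 0.07, interval -0.35 to -0.04, limma adjusted p = 0.065). It passed with median centring (0.021) and without shHDAC1 replicate 3 (0.047). PDIA3, PDIA4 and PDIA6 are its close relatives, and PDIA3 works with the lectins. PDIA4 was at 351, 344 and 395 TPM with shLuc and at 263, 249 and 264 TPM with shHDAC1, and PDIA6 was at 753, 789 and 749.7 TPM with shLuc and at 588, 574 and 574 TPM with shHDAC1. Both were separate in all libraries, and they fell to 71.2% (limma adjusted p = 8.47e-04) and 75.7% (limma adjusted p = 4.98e-04). PDIA5 fell to 75.7% (-0.39 ± 0.07, limma adjusted p = 0.0046). PDIA3 fell to 77.5% (-0.36 ± 0.08, limma adjusted p = 0.0094) over all its transcripts. Transcripts annotated as coding held 3.51% of its TPM with shLuc and 4.15% with shHDAC1, and on these alone it was at -0.11 and not called (limma adjusted p = 0.40).

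The balance between TXNDC5 and P4HB differed between the groups. TXNDC5 had 1.27, 1.39 and 1.23 times the level of P4HB in the shLuc libraries and 0.601, 0.634 and 0.521 times its level in the shHDAC1 libraries. TXNDC5 was thus above P4HB in each control library and below it in each shHDAC1 library. The pair sets a large fall against a member not called, so the ratio adds no evidence beyond the values of each gene. Of the summed TPM of all members, TXNDC5 made up 6.99% with shLuc and 3.88% with shHDAC1, whereas P4HB went from 5.42% to 6.66%. TXNDC5 overlaps the readthrough gene BLOC1S5-TXNDC5 on the same strand, to which 13.6 TPM were assigned with shLuc and 5.54 TPM with shHDAC1, so the split between them had little weight.

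ERP29, a PDI-like protein without an active site cysteine pair, was at 357, 338 and 346 TPM with shLuc and at 218, 224 and 238 TPM with shHDAC1. Its libraries were tightly grouped on each side, and it fell to 65.4% (-0.61 ± 0.06, limma adjusted p = 1.10e-04). The membrane-bound TMX1 fell to 67.3% (limma adjusted p = 0.0073) and TXNDC11, known as a partner of the dual oxidases, to 68.1% (limma adjusted p = 6.90e-04). CRELD2, a stress-induced isomerase, was at 140.2, 136 and 149 TPM with shLuc and at 102, 100.4 and 102 TPM with shHDAC1, the narrowest spread of any called member with shHDAC1 relative to its level. It fell to 71.7% (limma adjusted p = 6.86e-04). TXNDC12, TMX3 and ERP44 overlapped between the groups, with log2 fold changes of -0.04, 0.15 and -0.15 and limma adjusted p of 0.73, 0.36 and 0.41. ERP44 retrieves the oxidases and immunoglobulin M subunits from the early Golgi.

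The oxidases that feed the family with disulfides did not move together. ERO1A, the main oxidase of PDI, was at 50.02, 59.3 and 52.7 TPM with shLuc and at 50.4, 51.8 and 45.4 TPM with shHDAC1, overlapping, with a log2 fold change of -0.13 and an interval from -0.33 to 0.07 (limma adjusted p = 0.31). ERO1B, the scarcest member, was at 2.35, 3.79 and 3.34 TPM against 2.69, 2.93 and 1.599 TPM and was not called (limma adjusted p = 0.32). PRDX4 fell, as given above. QSOX1, a sulfhydryl oxidase that acts late in the secretory pathway and on secreted proteins, was the member that rose. It lies at chr1:180154834-180204030 and was at 6.82, 6.78 and 6.63 TPM with shLuc and at 10.8, 11.3 and 9.54 TPM with shHDAC1. Every shHDAC1 library was above every shLuc library, at 156% of the control level (0.57 ± 0.11, limma adjusted p = 0.0057).

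Of the 4 prolyl isomerases 2 fell and 0 rose, and the class sum was 2978 ± 103 TPM with shLuc and 2222 ± 110.4 TPM with shHDAC1, a difference of -25.4%. PPIB codes for cyclophilin B, which speeds proline isomerisation in immunoglobulin and collagen chains, and was the most abundant member in each group. It was at 2427, 2259 and 2362 TPM with shLuc and at 1583, 1675 and 1750.5 TPM with shHDAC1. No library of one group came near the other, and PPIB fell to 71.1% (-0.49 ± 0.06, limma adjusted p = 2.90e-04). It kept its rank and made up 16.4% of the summed member TPM in both groups. FKBP2 fell to 85.1%, the smallest fall among the called members (-0.23 ± 0.07, limma adjusted p = 0.033). Its call was lost without shLuc replicate 1 (0.13), shLuc replicate 3 (0.078), shHDAC1 replicate 1 (0.098) or shHDAC1 replicate 2 (0.066). FKBP11, a prolyl isomerase typical of secretory cells, was at 201, 206 and 205 TPM with shLuc and at 183, 210.3 and 188 TPM with shHDAC1. Its second shHDAC1 library was above all shLuc libraries, and the fold change was -0.08 with an interval from -0.23 to 0.07 (limma adjusted p = 0.42). FKBP14, which serves collagen folding, was at 19.4, 21.3 and 12.4 TPM against 11.6, 13.6 and 13.2 TPM. The shLuc library with 12.4 TPM was as low as the shHDAC1 libraries, and without that library FKBP14 was called lower (limma adjusted p = 0.0078, against 0.12 with all libraries).

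Of the 4 calcium-binding CREC genes 2 fell and 0 rose, and CALU made up most of the change in the class. The class sum was 499 ± 8.65 TPM with shLuc and 349.5 ± 13.1 TPM with shHDAC1, a difference of -29.9%. SDF4, a Golgi calcium-binding protein, was at 236, 214 and 229.9 TPM with shLuc and at 195, 182 and 189 TPM with shHDAC1, separate in all libraries, and fell to 83.3% (limma adjusted p = 0.014). Its call was lost without shLuc replicate 1 (0.065). RCN1 and RCN2 code for reticulocalbins, relatives of calumenin in the ER. RCN1 was at 40.2, 43.3 and 40.5 TPM against 40.9, 38.2 and 38.4 TPM, with an interval of the log2 fold change from -0.25 to 0.10. RCN2 was at 79.7, 100.2 and 81.4 TPM against 82.0, 85.4 and 70.5 TPM, with an interval from -0.37 to 0.11. Both overlapped between groups and were not called (limma adjusted p = 0.5 and 0.39). CALU was at 3.44, 3.49 and 3.51 times the level of RCN1 in the shLuc libraries and at 1.12, 1.05 and 1.07 times in the shHDAC1 libraries. That pair sets the largest fall against a member not called, so the ratio adds no evidence beyond the values of each gene.

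Most members with an ERSE in the promoter window fell, and so did most abundant members without one. Of the 7 genes with an ERSE, 6 fell (HSP90B1, CANX, CALR, CRELD2, PDIA6 and HSPA5) and ERO1B was not called, and the log2 fold changes ran from -0.61 to -0.30 with a median of -0.48. Of the 9 with ERSE or ERSE-II, 7 fell, with a median of -0.40, and of the 31 matched members with neither, 17 fell and 1 rose, with a median of -0.26. These groups also differ in level, with a median control level of 531 TPM for the 9 and 81.3 TPM for the 31. Among members with a mean of at least 100 TPM, 7 of 7 with ERSE or ERSE-II fell (median -0.48), and 11 of 13 with neither fell (median -0.40). TXNDC5 and PRDX4 are among these 13. CALU has neither element as well, but its mean over the 6 libraries was below 100 TPM, so it is not among them. Genes outside the 42 with an ERSE were counted in the same way. Of 18 other symbols with an ERSE, 8 were tested, of which 2 were called lower (EIF2A and XBP1) and 1 higher (TRIM5), with a median of -0.10. These genes were named after their values were seen. ALG12, a mannosyltransferase gene that lies head to head with CRELD2 and holds the same ERSE in its own window, was at 33.0 TPM with shLuc and 29.9 TPM with shHDAC1 and was not called.

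Annotated 3′ UTRs were searched for the 7-mer GACAAAC and its extension GACAAACA. Both had come up in earlier work on these data, so any link with lower genes is not independent evidence. The labels do not give the HDAC1 hairpin sequence, so it was not compared with these letters. The 7-mer was in an annotated 3′ UTR of 941 of 10988 tested genes (8.56%) and of 6 of the 42 members (14.3%), and the 8-mer in 363 genes (3.3%) and 3 members. The 6 members are CALU, DNAJC10, TMX1, FKBP14, ERO1B and RCN2. Of these, 3 fell (CALU, DNAJC10 and TMX1; median of the 6 -0.43), and of the 36 without it 22 fell (median -0.33). Forms that hold the site had lower means with shHDAC1 in CALU, TMX1, FKBP14 and ERO1B, such as TMX1-201 at 15.6 TPM with shLuc and 8.89 TPM with shHDAC1. They did not in DNAJC10 and RCN2. DNAJC10-201 was at 1.09 TPM with shLuc and 1.12 TPM with shHDAC1, and the RCN2 form with the site at 4.15 and 4.23 TPM. The sites of CALU, the member with the largest change, and of FKBP14 and TMX1 are shown from RNA-sense reference transcripts written as DNA, with the matched letters in capitals.
CALU: cacacatgtaGACAAACAttagctcttt
FKBP14: caaaaaccaaGACAAACAcactagccta
TMX1: ttttttaaaaGACAAACttcatattat

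The CALU site lies at chr7:128769490-128769497 (GRCh38, GENCODE 29) in the 3′ UTR of 5 of its coding transcripts. No site was listed for its sixth, CALU-204, which went from 26.1 ± 3.26 to 8.34 ± 2.02 TPM (SD, n = 3). The main form CALU-201 went from 57.8 ± 5.79 to 18.2 ± 1.82 TPM. Shares among transcripts of a gene are estimates from shared reads, so CALU-204 is no separate measurement. TXNDC5 and PRDX4 hold neither sequence. The part of this 7-mer in the result was not tested.

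Transcript forms matter for several members, since the sums take in forms that are not annotated as coding. CANX-210, a form with a retained intron, was at 93.9, 56.9 and 94.1 TPM with shLuc and was listed at or next to 0 in all shHDAC1 libraries, while the main coding form CANX-201 was at 502 ± 51.9 and 399 ± 24.7 TPM. The form PDIA3-202 held 76.3% (shLuc) and 76.5% (shHDAC1) of the PDIA3 values and is annotated as subject to nonsense-mediated decay. SDF2 and FKBP14 were called lower on coding transcripts alone and not over all transcripts. SDF2-201, its coding form, was at 19.95, 19.8 and 22.7 TPM with shLuc and at 16.0, 15.0 and 16.7 TPM with shHDAC1, and the adjusted p (limma) was 0.018 for SDF2 (-0.37) and 0.0053 for FKBP14. MANF-204, the coding form of MANF, went from 3.89 ± 0.605 to 2.28 ± 2.11 TPM, opposite in sign to the gene sum, most of which lay with shHDAC1 in MANF-201, a form annotated for decay. Whether the counting used strand is not given in the sources used here, and some members overlap a gene of the other strand. DNAJB9 overlaps THAP5 (30.6 TPM with shLuc, 23.4 TPM with shHDAC1), SIL1 overlaps MATR3 (89.4 and 84.7 TPM), SDF2 overlaps SUPT6H (53.2 and 60.6 TPM) and TXNDC11 overlaps SNN (20.7 and 34.4 TPM), so reads of these pairs may have been exchanged. On coding transcripts 25 members were again called lower, of which 23 were shared with the count over all transcripts.

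Other genes of the ER and folding network were counted from lists made by function. Of all genes tested, 10.3% were called lower and 16.9% higher, but the lists differ in level. Median shLuc levels were 441 TPM for the translocon list and 473 TPM for the cytosolic and mitochondrial chaperones. For both, the nearer background is that of genes averaging 100 TPM or more, with 23.0% called lower and 12.8% higher. The sensors and regulators (22.8 TPM) and the ER-associated degradation genes (63.3 TPM) had lower medians. No background matched to their level was counted. Of 15 sensors and regulators of the unfolded protein response 4 fell and 4 rose, with a median of -0.08. XBP1, the factor spliced by IRE1, was at 357, 376 and 355 TPM with shLuc and at 325, 312 and 304 TPM with shHDAC1, separate in all libraries, and fell to 86.5% (limma adjusted p = 0.023). These values are totals of gene XBP1, and its spliced form was not resolved. ATF4, the main factor below PERK, fell from 417, 391 and 406 to 269.7, 259.6 and 271 TPM (limma adjusted p = 8.09e-05), and so did TRIB3, a target of ATF4 (-0.55, limma adjusted p = 0.0012). ATF6 was at 37.7 ± 3.25 and 35.2 ± 0.751 TPM and was not called (limma adjusted p = 0.47). CREB3L2, a relative of ATF6, rose (0.79, limma adjusted p = 9.34e-04), as did DDIT3, which codes for CHOP (0.62, limma adjusted p = 0.0043).

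Among genes that bring chains into the ER or take them out, more were called lower than higher. Of 23 genes of the translocon, signal peptidase and oligosaccharyltransferase 13 fell and 1 rose, with a median of -0.21. SSR1, a subunit of the TRAP complex at the translocon, fell from 932 ± 50.03 to 554 ± 48.7 TPM (limma adjusted p = 1.34e-04) and SPCS1, of signal peptidase, from 558 ± 44.5 to 332 ± 21.9 TPM (limma adjusted p = 1.47e-04). SEC11A, a catalytic subunit of signal peptidase, rose (0.29, limma adjusted p = 0.041). Of 17 genes of ER-associated degradation 7 fell and 0 rose, with a median of -0.23, and the smallest p-values were those of UBE2J1, a ubiquitin-conjugating enzyme (-0.78, limma adjusted p = 2.76e-04), and ERLEC1, a lectin (-0.73, limma adjusted p = 2.76e-04).

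The chaperones of the cytosol and mitochondria served as a set of like function outside the ER. Of 25 genes 8 fell and 5 rose, with a median of -0.04, and the falls were small, down to -0.31 for TCP1, a chaperonin subunit (limma adjusted p = 0.0028). HSP90AA1, the inducible cytosolic HSP90, fell from 921 ± 23.6 to 808 ± 12.8 TPM (limma adjusted p = 0.019), against the fall of HSP90B1 to 65.5% in the ER. The J-domain gene DNAJA1 rose (0.34, limma adjusted p = 0.0045). HSPE1, the mitochondrial cochaperonin, rose from 473 ± 26.6 to 1008 ± 97.0 TPM (limma adjusted p = 1.88e-05), but it lies inside the annotated span of HSPD1, so the split of reads between these genes is uncertain. No test compared these lists with each other or with the members.

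**Figure D5:**
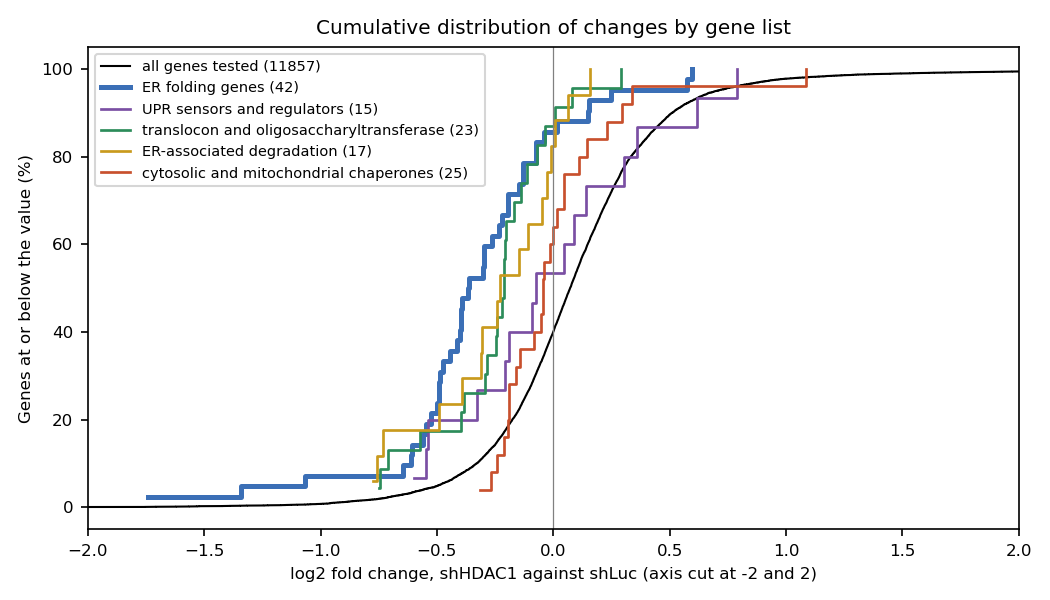
Cumulative share of genes (vertical axis) by log2 fold change, shHDAC1 minus shLuc on log2(TPM + 1) (horizontal axis), for the members, the 4 other lists and all 11857 genes tested, with the horizontal axis ending at -2 and 2. The curve of the members lies furthest left around its median of -0.36, and that of all genes crosses its median at 0.07.

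The sum of the immunoglobulin RNA, the main client load of this pathway in plasma cells, was lower as well. Immunoglobulin gene segments, 402 in number, summed to 25862 ± 454 TPM with shLuc and 19829 ± 408 TPM with shHDAC1 (SD, n = 3), a difference of -23.3%. The members' summed TPM over that of immunoglobulin was 0.549, 0.553 and 0.565 in the shLuc libraries and 0.514, 0.499 and 0.531 in the shHDAC1 libraries. The ratio was lower in each shHDAC1 library, with a mean difference of -7.37% (exact permutation p = 0.1, the smallest possible), a much smaller gap than that of either sum alone. TPM are shares, so a lower share of so abundant a set leaves more for all other genes. After histone, immunoglobulin and mitochondrial genes were left out and each library was rescaled, 25 members were called lower, all of them among the 25 called without rescaling.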

How the data were processed

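The authors deposited 1 table per library with a TPM value for each Ensembl transcript, per the file headers. The values add up to 1000000 in each library. Total RNA had been extracted on columns, treated with DNase and made into libraries with a NEBNext Ultra kit, per the labels' protocols. STAR, DESeq and hg19 are named, without versions or roles, per the submitters' processing notes, and the tool behind the TPM is not given in the sources used here. As shares, TPM keep no read numbers, so depth is unknown.

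Of 173259 transcripts, 159239 (91.91%) matched GENCODE 29 and were summed into 34500 genes. The test was limma 3.58.1 (R 4.3.3, variance trend) on log2(TPM + 1). A gene was tested if 3 or more libraries had at least 1 TPM of it, p-values of all 11857 such genes were adjusted together (Benjamini-Hochberg), and calls were made at an adjusted p below 0.05. Fold changes are on that scale, which understates low genes. Transductions are described as made in triplicate, and p-values measure only the spread between these libraries, which may be technical. Sums were compared by exact permutation.

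Gene coordinates are GENCODE 29 on GRCh38 and promoters RefSeq GRCh38.p14, with no conversion. The members and lists were chosen with earlier results of these data known. All 42 members are named, HDAC1, XBP1, ATF4 and ATF6 in any case, and up to 2 genes per list and direction with the smallest p. TNFRSF17, IRF4, CD38, overlapping genes and transcript forms were named after their values were seen. Ratios between genes or sums were not among the planned results. Alternatives were 2 scalings, 2 filters, 2 pseudocounts, the replicate block, each library left out, coding transcripts only and rescaling. Python 3.11.15 was used.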

Additional observations from a re-analysis of the deposited data

How the results depend on the processing

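Over 15 alternative settings, 19 of the 25 members called lower and QSOX1 kept their calls in every setting. Of the 16 members not called, 6 stayed not called and also kept the sign of their change in every setting. Leaving out 1 library in turn gave 21 to 25 members called lower, 1 to 2 called higher (MANF or UGGT1 joined QSOX1), a median log2 fold change of -0.37 to -0.32 and 2170 to 3057 genes called, against 3226. The difference of the members' summed TPM then lay between -29.4% and -28.7%, and that of the class sums between -27.4% and -26.1% for HSP70 and HSP90 chaperones, -30.3% and -26.1% for the lectin cycle, -34.1% and -33.1% for the PDI family, -27.1% and -23.4% for prolyl isomerases and -31.4% and -28.9% for CREC genes. The members' median was -0.46 with median centring and -0.31 with quantile normalization, and the median of all genes was -0.03 and -0.01, against 0.07. The PDI sum differed by -35.0% on coding transcripts only. SDF2 reversed with median centring (-0.083), quantile normalization (-0.052), without shLuc replicate 3 (-0.020), without shHDAC1 replicate 3 (-0.018) and on coding transcripts (-0.37), with a range of -0.020 to 0.063 when 1 library was left out. On coding transcripts MANF (-0.75), ERO1A (0.089), FKBP11 (0.029), RCN1 (0.15) and RCN2 (0.021) reversed too, none of them called. FKBP2 was not called with quantile normalization (limma adjusted p = 0.12) or without the filter (0.092), nor SIL1 (0.088) and CNPY2 (0.091) without the filter, and DNAJC3 was called lower with median centring (0.029) and quantile normalization (0.03). The cause was not tested.

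Deviations of same-numbered libraries correlated at -0.103, 0.182 and 0.034 across genes, and those of the other pairs from -0.165 to 0.146. With 3 libraries per group this cannot settle whether the numbers pair the samples. The main fit used the group only. With the replicate block 1979 genes were called higher and 1264 lower, and 26 members were called lower, with P4HB (limma adjusted p = 0.019) joining the 25. ERO1B had a mean below 5 TPM, so 41 members were tested under that filter. TPM hold no depth, and this limits the low members most.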
